A study of Homo sapiens with 6 samples.

Results

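Integrins are the cell surface receptors by which cells hold on to the extracellular matrix, and 10 of their subunit genes were followed here in Ewing sarcoma cells after FLI1 was targeted with siRNA. The 10 genes are the α subunits ITGA1, ITGA2, ITGA3, ITGA4, ITGA5, ITGA6 and ITGAV and the β subunits ITGB1, ITGB3 and ITGB5. They were taken by gene symbol, and each had 1 row among the 27234 rows of the count table. Only 6 of the 10 had enough counts to be tested: ITGA1, ITGA5, ITGA6, ITGAV, ITGB1 and ITGB5. RNA was measured in A673, an Ewing sarcoma cell line with the EWS-FLI1 fusion, a transcription factor made of one end of EWSR1 and the ETS domain of FLI1. Cells of both groups carried the fusion and grew in the same serum-containing medium. One group received siRNA against FLI1 (siFLI1, 3 libraries) and the other a scrambled siRNA (siControl, 3 libraries), and polyadenylated RNA was taken 48 h later. Libraries read the 3' ends of transcripts.

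Each integrin is a pair of 1 α and 1 β chain, and the α chain largely sets the ligand. With ITGB1 as the shared partner, ITGA1 and ITGA2 bind collagens, ITGA3 and ITGA6 bind laminins, ITGA5 binds fibronectin, and ITGA4 binds fibronectin and the surface protein VCAM1. ITGAV pairs with ITGB1, ITGB3 or ITGB5 and binds vitronectin, fibronectin and other proteins through the Arg-Gly-Asp motif. Talin and kindlin bind the β tail inside the cell and switch the receptor on.

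The level of the siRNA's target lay lower in each siFLI1 library than in any siControl library. FLI1 (chromosome 11) was at 19.0, 42.5 and 24.1 CPM (counts relative to library size, scaled by the trimmed mean of M values, TMM) in siFLI1 and at 63.0, 69.1 and 62.4 CPM in siControl, and it did not pass the test over all genes (edgeR quasi-likelihood test, adjusted p = 0.17). Counts per library ran from 417145, in siFLI1 replicate 3, to 1893606, so that 1 count stood for 0.539 to 2.68 CPM. In siFLI1 replicate 3 those counts were 10.1% of the total the submitters gave for that library, against 41.2% to 61.0% in the others. That total was the highest of all libraries. The cause of the low share in siFLI1 replicate 3 was not tested. siFLI1 replicate 3 stood apart on principal component 1 (76.1, against −29.9 to 2.68 in the others). siControl replicate 1 stood apart on component 3 (−42.7, against −11.8 to 30.7). Several results that rest on these 2 libraries are given with and without them. On component 2, siFLI1 replicates 1 and 2 were at 36.4 and 37.4 and the other libraries at −28.6 to −12.9. All 10 genes listed as Ewing sarcoma markers, FLI1 included, were tested and had a negative log2 fold change (median −1.03). Of all tested genes 49.6% had a negative log2 fold change and 0.117% were called lower. The nuclear receptor NR0B1 and the kinase PRKCB fell, by 1.43 ± 0.30 and 1.17 ± 0.26 on the log2 scale (SE; edgeR adjusted p = 0.025 and 0.0369), and both lost their calls in each of the 6 fits without 1 library. Markers of other cell types were mixed. CD3E of 10 leukocyte markers, TEK, ITGA2B and PF4 of 8 endothelial and platelet markers, and KRT5 and KRT14 of 8 epithelial markers were at 0 in all libraries, and the fibroblast markers DCN and LUM had 11 and 6 counts in all. Others were present, with 489 counts of CD68, 1623 of KRT18, 187 of KRT8 and 2733 of THY1, none of them called. The fibroblast markers PDGFRB and FAP had 239 and 52 counts and lay higher in each siFLI1 library than in any siControl library. Of all tested genes 8.93% did likewise. The log2 fold changes of PDGFRB and FAP were 1.68 ± 0.47 and 2.09 ± 0.77 (SE; edgeR adjusted p = 0.117 and 0.299). PDGFRA, on the same list, went the other way, with 2, 1 and 0 counts in siFLI1 and 25, 0 and 1 in siControl. It was too low to be tested. COL1A1 and COL1A2, also on the fibroblast list, were called higher and are given with the collagens.

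None of the 6 tested integrin genes was called higher or lower in siFLI1 (edgeR quasi-likelihood test with Benjamini-Hochberg adjustment over 9420 genes, threshold 0.05). Calls of higher genes made up 1.34% of all tested genes, and calls of lower genes 0.117%. ITGA6 and ITGAV were higher at an unadjusted p under 0.05 and no member was lower, against 6.62% of all tested genes higher and 4.13% lower. The same 0 calls came from DESeq2 and limma-voom, each with ITGA6 and ITGAV higher at an unadjusted p below 0.05. Of the 6 tested members 5 had a positive log2 fold change (50.4% of all tested genes) and 1 a negative one (49.6%), with a median of 0.36 against 0.0052 over all tested genes. Because cells were measured in bulk, fewer cells that make a transcript and less of it per cell cannot be told apart.

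**Figure D1:**
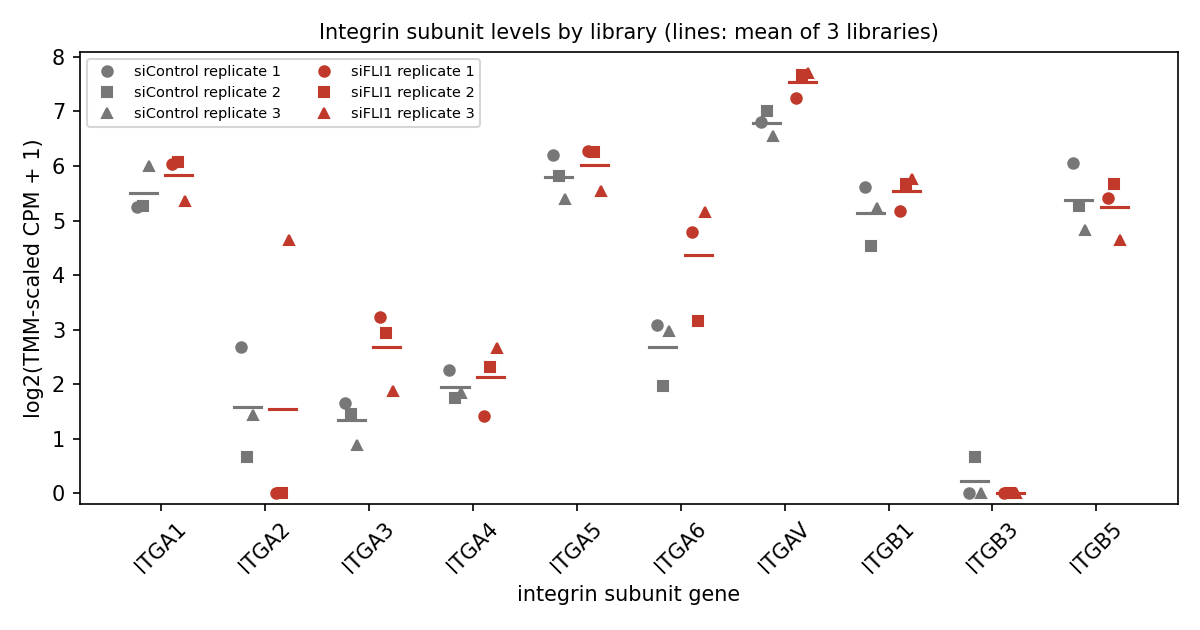
Level of the 10 integrin subunit genes in each library, as log2 of TMM-scaled CPM plus 1, grey for siControl and red for siFLI1, symbols for replicates and lines for the mean of 3 libraries. The 3 siFLI1 points of ITGAV lie above its 3 siControl points, and ITGB3 is at 0 in 5 of the 6 libraries.

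**Figure D2:**
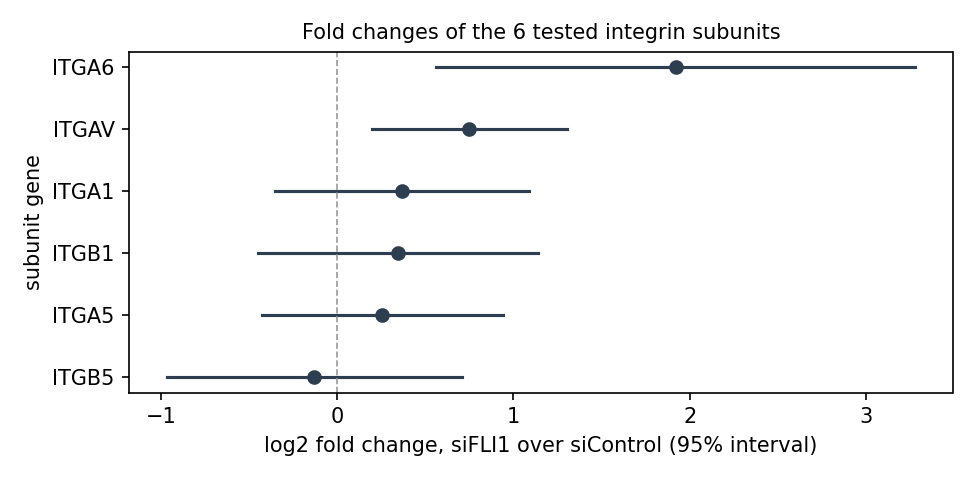
Log2 fold change of siFLI1 over siControl for the 6 tested subunits, with 95% intervals from the edgeR fit for each gene alone, without adjustment over genes. The intervals of ITGA6 and ITGAV lie above 0, and those of the other 4 include 0.

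Promoter sequences of the members are shown because the factor that was targeted belongs to the ETS family, whose DNA motif has the core GGAA. RefSeq windows of 300 bases (GRCh38.p14), from 250 before to 50 after a start site, were at hand for 8 members, all but ITGA3 and ITGB3, and the window nearest the start of the longest coding transcript in GENCODE 29 was taken for each. Printed are ITGA6 (chr2:172427336-172427635, plus strand) and ITGAV (chr2:186589806-186590105, plus strand), the members with the smallest p, their shared partner ITGB1 (chr10:32958181-32958480, minus strand), and ITGA5 (chr12:54419217-54419516, minus strand), the member with the most GGAA cores. The counted ITGAV row starts at 186600205, downstream of the start site of the printed ITGAV window, 186590056. A window at 186600205, not printed, had 3 GGAA cores and 41.3% G and C. Capitals mark GGAA or its complement TTCC, and each sequence reads 5′ to 3′ on the strand of the gene.
ITGA6: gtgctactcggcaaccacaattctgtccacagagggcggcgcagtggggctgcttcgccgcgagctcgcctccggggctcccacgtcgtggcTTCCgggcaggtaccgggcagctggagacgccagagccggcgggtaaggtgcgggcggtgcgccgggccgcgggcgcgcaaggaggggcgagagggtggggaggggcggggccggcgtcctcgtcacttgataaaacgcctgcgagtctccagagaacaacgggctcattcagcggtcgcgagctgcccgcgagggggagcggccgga
ITGAV: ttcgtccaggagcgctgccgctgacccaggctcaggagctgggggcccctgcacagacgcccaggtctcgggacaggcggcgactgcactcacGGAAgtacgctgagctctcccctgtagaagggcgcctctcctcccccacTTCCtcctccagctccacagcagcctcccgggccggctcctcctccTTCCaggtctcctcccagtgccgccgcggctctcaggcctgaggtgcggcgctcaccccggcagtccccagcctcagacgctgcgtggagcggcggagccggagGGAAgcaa
ITGB1: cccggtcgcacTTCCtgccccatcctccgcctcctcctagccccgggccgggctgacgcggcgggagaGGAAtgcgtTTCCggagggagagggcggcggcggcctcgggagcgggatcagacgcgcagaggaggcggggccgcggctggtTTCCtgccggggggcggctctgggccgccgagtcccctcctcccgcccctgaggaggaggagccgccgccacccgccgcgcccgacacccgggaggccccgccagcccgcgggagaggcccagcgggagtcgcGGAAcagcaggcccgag
ITGA5: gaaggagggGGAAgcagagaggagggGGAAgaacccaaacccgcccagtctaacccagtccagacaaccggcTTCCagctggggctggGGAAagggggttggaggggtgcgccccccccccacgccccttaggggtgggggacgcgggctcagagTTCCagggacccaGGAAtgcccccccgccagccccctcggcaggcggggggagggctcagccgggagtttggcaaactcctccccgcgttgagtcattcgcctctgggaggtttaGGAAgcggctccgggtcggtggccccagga

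The GGAA core, searched on both strands, was in the windows of all 8 members, as it was in 95.5% of 35116 RefSeq promoter windows of this length. Its number ran from 1 in ITGA6 to 7 in ITGA5, with 4 in ITGAV and 5 in ITGB1, against a median of 3 over all windows. The direct repeat GGAAGGAA was in 0 of the 8, against 3.67% of all windows. The AP-1 motif TGACTCA was in ITGA5 alone (4.95% of all windows). GGAATG, a TEAD motif that contains the GGAA core, was in ITGA5 and ITGB1 (14% of all windows). The 8 windows had 61.7% to 78.3% G and C, against a median of 58.67% over all windows. This sets 1 chosen window per member against every window at hand, other start sites included. Windows of ITGA6, ITGAV, ITGB1 and ITGB5 that were not taken had 40.7% to 59.7% G and C, and that of ITGA6 held no GGAA. The motif counts are matches of letters in short windows, not measured sites.

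Collagen receptors came first by ligand. ITGA1, the α chain of the collagen receptor α1β1 (row NM_181501, chromosome 5, 52788302 to 52953655, plus strand, in hg38), had levels of 64.9, 66.4 and 40.2 CPM in siFLI1 replicates 1, 2 and 3. The siControl values were 37.2, 37.5 and 63.2 CPM in the same order. The groups overlapped, because siFLI1 replicate 3 lay below siControl replicate 3. The means of 57.2 ± 14.7 and 45.96 ± 14.97 CPM (SD, n = 3) differed by 0.37 ± 0.34 on the log2 scale (SE; adjusted p = 0.779 in edgeR). Its 95% interval of −0.35 to 1.09 leaves room for no change and for a rise to 2.12-fold. The value ran from 0.20 without siControl replicate 1 to 0.65 without siControl replicate 3. The ITGA1 row ends 5555 bases before the furthest coding 3' end in GENCODE 29, and reads beyond that end would not be in these counts. PELO lies within ITGA1 on the same strand.

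ITGA2, the α chain of the second collagen receptor α2β1, starts 35671 bases after ITGA1 ends (row NR_073106, chromosome 5, 52989326 to 53094779, plus strand). It had 0, 0 and 9 counts in siFLI1 replicates 1, 2 and 3 and 10, 1 and 2 in siControl, too few to be tested. Most of its 22 counts thus came from siFLI1 replicate 3 and siControl replicate 1, the libraries that stood apart. In CPM these were 0, 0 and 24.1 in siFLI1 and 5.39, 0.586 and 1.71 in siControl, with overlap between the groups. A count of 0 allows up to 1.68 CPM in siFLI1 replicate 1 and 1.99 CPM in replicate 2, counting error only.

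The laminin receptors held the member with the largest fold change. ITGA6, the α chain of the laminin receptor α6β1 (row NM_001316306, chromosome 2, 172427354 to 172506455, plus strand), had 48, 12 and 13 counts in siFLI1 and 14, 5 and 8 in siControl. These were 26.8, 7.97 and 34.8 CPM in siFLI1 and 7.54, 2.93 and 6.84 CPM in siControl. siFLI1 replicates 1 and 3 were far above siControl, while siFLI1 replicate 2 was above siControl replicate 1 by less than 1 count. Group means were 23.2 ± 13.8 and 5.77 ± 2.48 CPM (SD, n = 3). On the log2 scale the difference was 1.92 ± 0.63 (SE; 95% interval 0.56 to 3.28). The edgeR p was 0.00885, and the adjusted p 0.22. Without siFLI1 replicate 3 the difference was 1.60 ± 0.65 (SE; edgeR adjusted p = 0.367). Without both siFLI1 replicate 3 and siControl replicate 1 it was 1.88 ± 0.72 (edgeR adjusted p = 0.25). Permuting the group labels exactly, two-sided, returned p = 0.1, which is as low as 3 against 3 libraries can go. Under scaling by total counts or by the upper quartile the groups overlapped. GENCODE lists ITGA6-AS1 on the other strand, and no source used here says if counting was by strand.

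ITGA3, the α chain of the laminin receptor α3β1 (row NM_002204, chromosome 17, 50055968 to 50090485, plus strand), had 15, 10 and 1 counts in siFLI1 and 4, 3 and 1 in siControl and was not tested. The levels were 8.39, 6.64 and 2.68 CPM in siFLI1 against 2.15, 1.76 and 0.855 CPM in siControl, with siFLI1 replicate 3 resting on a single count. The groups did not overlap on this scale, with siFLI1 higher, and they overlapped under total counts. Of all tested genes 8.93% were likewise higher without overlap, though ITGA3 itself lay below the filter for testing. Pooled over libraries the ratio was 4.196, with an exact 95% interval of 1.84 to 10.7 for counting error only. With no low-count filter its edgeR log2 fold change was 1.85 ± 1.16 (SE; adjusted p = 0.641). Without siFLI1 replicate 3 and siControl replicate 1 it was 2.39 ± 0.95 (adjusted p = 0.271).

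Fibronectin receptor α chains showed no difference beyond their spread. ITGA5, the α chain of the fibronectin receptor α5β1 (row NM_002205, chromosome 12, 54395261 to 54419266, minus strand), was at 76.6, 75.1 and 45.5 CPM in siFLI1 and at 72.2, 55.6 and 41.02 CPM in siControl. The groups overlapped over most of their range. Its log2 fold change was 0.26 ± 0.32 (SE; 95% interval −0.42 to 0.94; edgeR adjusted p = 0.85), and its means were 65.7 ± 17.5 and 56.3 ± 15.6 CPM (SD, n = 3). It was 0.08 without siControl replicate 3, and 0.63 ± 0.31 without both siFLI1 replicate 3 and siControl replicate 1 (adjusted p = 0.403). ITGA4, the α chain of α4β1 (row NM_000885, chromosome 2, 181456892 to 181538928, plus strand), had 3, 6 and 2 counts in siFLI1 and 7, 4 and 3 in siControl. Its pooled ratio of 1.01 had an exact 95% interval of 0.417 to 2.41, which covers counting error only and takes each count as 1 molecule. Tested with no low-count filter it was at 0.19 ± 1.32 on the log2 scale (SE; edgeR adjusted p = 0.979). CERKL overlaps the ITGA4 row on the other strand.

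ITGAV, the α chain of the vitronectin receptors, had the highest count of the 10 in each library and was the member with the clearest separation (row NM_001144999, chromosome 2, 186600205 to 186680902, plus strand). Its 269, 304 and 78 counts in siFLI1 came to 150.4, 202 and 209 CPM. In siControl it was at 110.9, 127 and 93.2 CPM, from 206, 217 and 109 counts. Each siFLI1 library lay above each siControl library under all 4 scalings tried. The means of 187 ± 31.9 and 110.4 ± 16.97 CPM (SD, n = 3) differed by 0.75 ± 0.26 on the log2 scale (SE; 95% interval 0.20 to 1.30), or 1.68-fold. The edgeR p was 0.0114. It did not pass over all genes (adjusted p = 0.251; exact permutation p = 0.1). Without siFLI1 replicate 3 and siControl replicate 1 it was 0.66 ± 0.27 (edgeR adjusted p = 0.277). Of the 6 tested members 2, ITGA6 and ITGAV, had groups that did not overlap, both with siFLI1 higher, against 16.6% of all tested genes (8.93% higher and 7.71% lower).

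The β partners of ITGAV did not share its separation. ITGB5 (row NM_002213, chromosome 3, 124761949 to 124887305, minus strand) was at 41.4, 49.8 and 24.1 CPM in siFLI1 and at 65.7, 37.5 and 27.3 CPM in siControl. The highest and the second lowest of these values were in siControl, and the groups overlapped. Its log2 fold change was −0.13 ± 0.39 (SE; 95% interval −0.97 to 0.71; edgeR adjusted p = 0.94), and it turned to 0.27 without siControl replicate 1, to 0.05 without siFLI1 replicate 3 and to 0.47 without both. ITGB3, the β chain of αVβ3 (row NM_000212, chromosome 17, 47253842 to 47312711, plus strand), had 1 count over the 6 libraries, in siControl replicate 2. A count of 0 in siFLI1 allows up to 1.68, 1.99 and 8.03 CPM in replicates 1, 2 and 3, so αVβ3 transcripts could not be compared at this depth.

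ITGB1, the β chain shared by most of these receptors (row NM_133376, chromosome 10, 32900318 to 32957894, minus strand), was at 35.2, 49.8 and 53.6 CPM in siFLI1 and at 47.9, 22.3 and 36.8 CPM in siControl. The lowest siFLI1 library lay below siControl replicates 1 and 3. Its means of 46.2 ± 9.69 and 35.6 ± 12.9 CPM (SD, n = 3) gave a log2 fold change of 0.35 ± 0.37 (SE; 95% interval −0.45 to 1.14; edgeR adjusted p = 0.823). The interval includes no change and a rise to 2.2-fold. The value was 0.09 without siControl replicate 2 and 0.59 without siControl replicate 1.

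Read by α and β pair, the balance of chains was compared within each library as the log2 ratio of the α count to the β count, which does not depend on library scaling. The ratio is read across libraries only, since counts of 3' ends from different genes need not be captured alike. Of 9 pairs, 7 had counts of both chains in all libraries. ITGAV over ITGB5 was at 1.86, 2.02 and 3.12 in siFLI1 and at 0.76, 1.76 and 1.77 in siControl. This was the 1 pair whose groups did not overlap, by a mean difference of 0.90 on the log2 scale, and siFLI1 replicate 1 exceeded siControl replicate 3 by little. The exact permutation p was 0.1, or 0.467 after Benjamini-Hochberg adjustment over the 7 pairs, and the difference was 0.18 without siFLI1 replicate 3 and siControl replicate 1. ITGA6 over ITGB1 was at −0.39, −2.64 and −0.62 in siFLI1 and at −2.67, −2.93 and −2.43 in siControl, so that siFLI1 replicate 2 lay among the siControl libraries (mean difference 1.45, exact permutation p = 0.2). ITGA3 over ITGB1 differed by 1.42 (exact permutation p = 0.2) with overlap. ITGAV over ITGB1 differed by 0.34, ITGA1 over ITGB1 by −0.10, ITGA5 over ITGB1 by −0.20 and ITGA4 over ITGB1 by −0.20, each less than the larger SD of its 2 groups. Leaving out 1 library moved these from 0.10 to 0.75, from −0.47 to 0.26, from −0.51 to 0.17 and from −0.43 to 0.10 in turn, so that the last 3 changed sign.

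**Figure D3:**
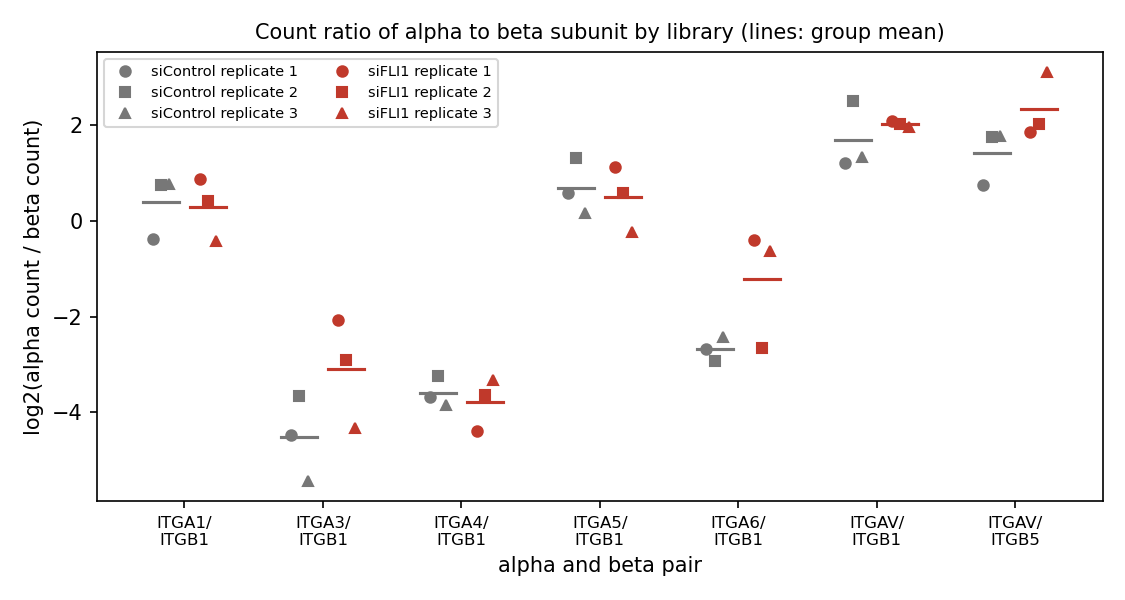
Log2 ratio of the α to the β count in each library for the 7 pairs with counts of both chains in all libraries, with siControl in grey, siFLI1 in red, symbols for replicates and lines for group means. ITGAV over ITGB5 is the 1 pair with no overlap between the groups, at 1.86 to 3.12 in siFLI1 and 0.76 to 1.77 in siControl.

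Summed over the 10 members, levels were 405, 462 and 439 CPM in siFLI1 replicates 1, 2 and 3 and 353, 288 and 273 CPM in siControl. Each siFLI1 sum lay above each siControl sum on this scale, but under total counts the highest siControl sum, 429 CPM in replicate 1, exceeded 384 and 394 CPM in siFLI1 replicates 1 and 3. Without ITGAV, TMM-scaled siFLI1 sums (255, 259.8 and 230.3 CPM) overlapped the siControl sums (242, 161 and 180.3 CPM). ITGAV made up 37.1%, 43.7% and 47.6% of the members' counts in siFLI1 and 31.5%, 44.1% and 34.1% in siControl.

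Ligands were described by the receptor that binds them, and whether they differed from the receptors was not tested. The lists were chosen with earlier results of these data known, so their shares and medians are descriptions and no independent support. Of 14 collagen chains, which α1β1 and α2β1 bind, 10 were tested and 6 rose and 0 fell in siFLI1, with a median log2 fold change of 1.40 (edgeR; 1.34% of all tested genes were called higher). Their levels summed to between 3135 and 3638 CPM in siFLI1 libraries, against 918 to 1010 CPM under siControl. COL1A2, a chain of collagen I, was at 1289, 1240 and 1210 CPM in siFLI1 and at 283, 343 and 359 CPM in siControl. It rose by 1.93 ± 0.27 on the log2 scale (SE; edgeR adjusted p = 0.00101). COL6A1, a chain of collagen VI, rose by 2.21 ± 0.28 and COL4A1, a chain of basement membrane collagen IV, by 1.46 ± 0.27 on the log2 scale. COL3A1, COL6A3 and COL1A1 were the other 3. COL1A1 and COL4A1 lost their calls in 4 and 3 of the 6 fits without 1 library, which left between 4 and 6 collagen calls, the lowest without replicate 2 of siFLI1 or replicate 2 or 3 of siControl. COL1A1 and COL1A2 are also listed fibroblast markers. Of the 9 genes on that list 5 were tested. Levels summed over all 9 to between 1880 and 2181 CPM in siFLI1, against 775 to 985 CPM under siControl. These sums include COL1A1 and COL1A2 themselves, so they are no separate measure of fibroblast markers. Among the rest, PDGFRB averaged 51.3 CPM in siFLI1 and 15.3 CPM in siControl, and FAP 15.3 and 3.15 CPM. THY1 averaged 269 and 335 CPM, and none of these 3 was called. DCN and LUM were near 0, and PDGFRA had 29 counts, of which 25 were in siControl replicate 1. The part of fibroblast-like cells in these rises was not tested.

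Of 11 laminin chains, ligands of α3β1 and α6β1, 6 were tested and LAMA4 and LAMC1 rose and 0 fell, with a median log2 fold change of 1.5. Over all tested genes 1.34% were called higher. LAMC1, the γ chain of most laminins, was at 116, 171 and 85.7 CPM in siFLI1 and at 53.3, 43.9 and 41.9 CPM in siControl. It rose by 1.44 ± 0.31 on the log2 scale (SE; edgeR adjusted p = 0.0287), and it kept its call in only 1 of the 6 fits without 1 library, that without siFLI1 replicate 3. LAMA4 was called in all 6 such fits. LAMB1, the β chain that pairs with them, was at 1.04 ± 0.26 (adjusted p = 0.0651). LAMA5, a further α chain, was at 1.56 ± 0.59 (adjusted p = 0.314). Without siFLI1 replicate 3 and siControl replicate 1, 4 laminin chains were called higher.

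Of 25 listed ligands of the fibronectin and αV receptors, 14 were tested and 6 rose and 0 fell, with a median log2 fold change of 1.57. Over all tested genes 1.34% were called higher. All 14 had a positive log2 fold change, as did 50.4% of all tested genes. TGFBI, a matrix protein secreted in response to TGF-beta, was at 673, 613 and 557 CPM in siFLI1 and at 145, 89.6 and 100.9 CPM in siControl. It rose by 2.46 ± 0.28 on the log2 scale (SE; adjusted p = 0.000169 in edgeR) and was called in all 6 fits without 1 library. VCAM1, the cell surface ligand of α4β1, rose by 1.96 ± 0.34 on the log2 scale, and the adhesion molecule L1CAM by 1.94 ± 0.34. FBN1, the microfibril protein fibrillin-1, rose by 1.65 ± 0.28, and the matricellular proteins CCN1 and CCN2 (CYR61 and CTGF in the table) rose by 1.85 ± 0.33 and 1.30 ± 0.25. Over the 6 fits without 1 library, CCN2 lost its call in 5, all but that without siFLI1 replicate 3, VCAM1 and L1CAM in 3 each, CCN1 in 2 and FBN1 in 1. FN1, fibronectin itself, was at 1625, 1663 and 2016 CPM in siFLI1 and at 1011, 706 and 638 CPM in siControl, and did not pass (log2 fold change 1.17 ± 0.30; edgeR adjusted p = 0.0805). The 6 calls fell to 1 without siControl replicate 3, to 2 without siControl replicate 2 and to 4 without siFLI1 replicate 1 or siFLI1 replicate 2. They were 9 without both libraries that stood apart.

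**Figure D4:**
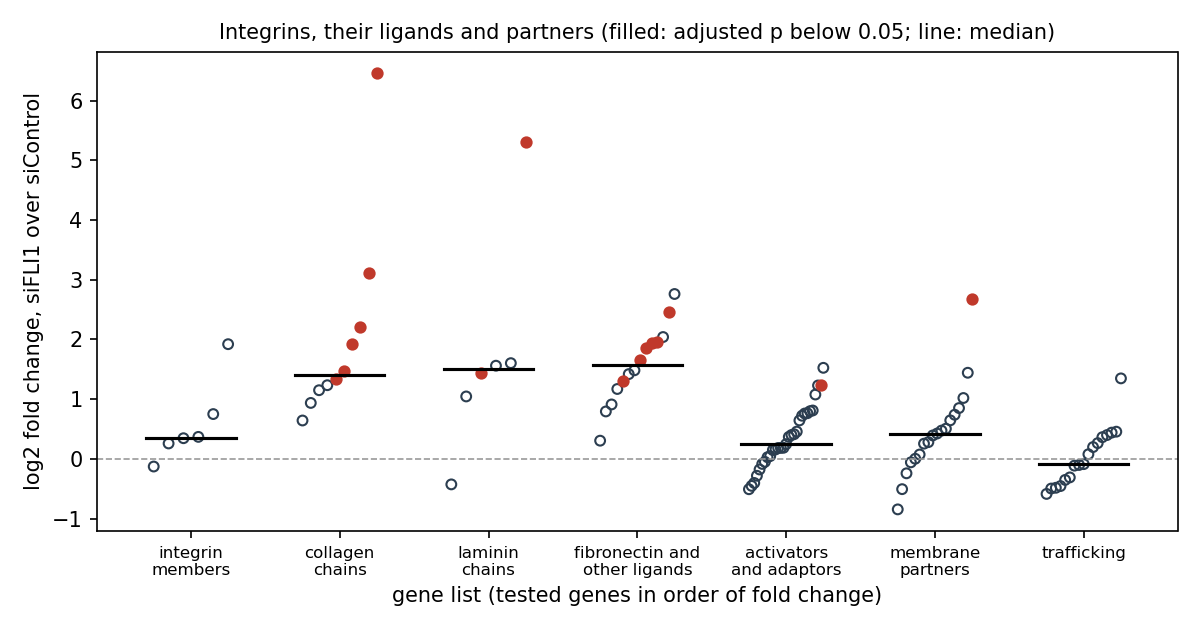
Log2 fold change of siFLI1 over siControl for the tested genes of 7 lists, with filled red points for genes called at an adjusted p below 0.05 and lines for list medians. The integrin members have no filled point and a median of 0.36, against medians of 1.40 for collagen chains, 1.5 for laminin chains and 1.57 for fibronectin and other ligands. Members and lists were chosen with earlier results of these data known.

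Genes that act on integrins inside the cell or beside them in the membrane were described next. Of 40 listed activators, inhibitors and adaptors, 29 were tested and 1 rose and 0 fell in edgeR (1.34% of all tested genes were higher), with a median log2 fold change of 0.25. At an unadjusted p under 0.05, 6 of the 29 were higher (6.62% of all tested genes), and 8 had groups without overlap (16.6%). The riser was KANK2, an adhesion protein that binds talin, at 135, 161 and 120.5 CPM in siFLI1 and at 72.7, 46.9 and 58.1 CPM in siControl (log2 fold change 1.24 ± 0.28; edgeR adjusted p = 0.0396). Leaving out replicate 1 or 2 of siFLI1, or replicate 2 or 3 of siControl, ended its call, with an adjusted p of up to 0.244. So did scaling by total counts (adjusted p = 0.152) or the upper quartile (0.0506) and the replicate block (0.101). The actin linker PARVA was at 1.23 ± 0.36 (adjusted p = 0.135), vinculin VCL at 0.80 ± 0.28 (adjusted p = 0.251) and the actin crosslinker ACTN1 at 0.76 ± 0.26 (adjusted p = 0.251). Talin TLN1 and kindlin FERMT2, named for their role and not by p, were at 0.40 ± 0.55 and 0.18 ± 0.34. Kindlin FERMT3, with 1862 counts against 365 for FERMT2, was at −0.40 ± 0.24 (edgeR adjusted p = 0.604). FERMT3 lay lower in each siFLI1 library than in any siControl library, as did 7.71% of all tested genes.

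Of 20 listed membrane partners 18 were tested, and TM4SF1, a tetraspanin-related surface protein, rose while 0 fell in edgeR. Over all tested genes 1.34% were called higher and 0.117% lower. At an unadjusted p under 0.05, 5 of the 18 were higher and 1 lower, against 6.62% and 4.13% of all tested genes. Groups without overlap were found for 8 of them, against 16.6% of all tested genes. TM4SF1 was at 62.6, 47.8 and 42.8 CPM in siFLI1 and at 8.08, 4.69 and 12.0 CPM in siControl. Its rise of 2.67 ± 0.43 on the log2 scale (SE; adjusted p = 0.00406 in edgeR) was called in all 6 fits without 1 library. The galectin LGALS3 was at 1.02 ± 0.25 (adjusted p = 0.0625) and the tetraspanin CD9 at 1.44 ± 0.39 (adjusted p = 0.0981). CAV1, the caveolae protein caveolin-1, went the other way without passing in edgeR, from 2119, 2118 and 2151 CPM in siControl to 1157, 1202 and 1191 CPM in siFLI1 (log2 fold change −0.85 ± 0.28; adjusted p = 0.226). It was called lower in DESeq2 (adjusted p = 0.024) and by edgeR on the 4 libraries that did not stand apart (adjusted p = 0.019). Of 19 listed genes of integrin uptake and recycling in the table, 17 were tested and 0 passed, with a median of −0.09 that turned to 0.14 without siFLI1 replicate 3. At an unadjusted p below 0.05 only the endocytic adaptor DAB2 was higher among them, at 1.35 ± 0.52 (edgeR adjusted p = 0.337), and none was lower. The shares over all tested genes were 6.62% higher and 4.13% lower.

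The other 16 human integrin subunit genes were mostly near 0. Of these ITGA2B and ITGAD had 0 counts in all libraries, 3 were tested and none was called (edgeR). ITGAE, known as the α chain of a lymphocyte receptor for E-cadherin, averaged 109 ± 44.3 CPM in siFLI1, against 105 ± 7.63 CPM under siControl (SD, n = 3). ITGB2, the β chain of leukocyte integrins, had 24, 56 and 12 counts in siFLI1 and 26, 14 and 27 in siControl (log2 fold change 0.86 ± 0.53; adjusted p = 0.624). Its usual partners ITGAL, ITGAM and ITGAX had 2, 28 and 40 counts in all, and the leukocyte marker PTPRC had 22, of which 16 were in siFLI1 replicate 3. The last, ITGA7, a laminin receptor α chain of muscle, was at −0.62 ± 0.75 (adjusted p = 0.846).

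Integrin genes too low to be tested drew an uneven share of their counts from siFLI1 replicate 3. The 17 subunit genes below the filter, 4 of them members, had 56, 32 and 41 counts in siFLI1 and 38, 28 and 27 in siControl, so that 18.5% were in that library, which holds 4.45% of the scaled depth of the series. Their summed level was 109.8 CPM there, against 16.4 to 31.3 CPM in the other 5 libraries. Over all genes below the filter the same library had 4.32% of its counts in such genes, against 1.10% to 1.71% in the others. The excess there was thus not particular to integrin genes. The 18.5% is a share of the genes' counts and the 4.32% a share of the library's counts, so these 2 values do not compare. The differences of ITGA2, ITGA3 and ITGA4 are therefore given as counts by library, and the part of that library's quality in them was not tested.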

How the data were processed

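Values were deposited by the authors as raw counts per gene over exons, 1 table for the series, with 1 RefSeq transcript per gene. Per the labels' protocols, libraries were a bulk derivation of MARS-seq, which reads 3' ends and adds a molecular barcode. Per the submitters' processing notes, bcl2fastq, HISAT 0.1.5, HOMER and hg38 were named, with no role or order. No source used here says if barcodes were collapsed, and PCR copies may be among the counts. Genes passing edgeR's filterByExpr (minimum count 10, minimum total 15) numbered 9420 of 27234. They were tested with edgeR 4.0.16 in R 4.3.3 (TMM, glmQLFit with robust=TRUE, glmQLFTest, group as the 1 term, two-sided), with Benjamini-Hochberg adjustment over all tested genes and a threshold of 0.05. Standard errors came from the quasi-likelihood F statistic. The fit was tested on simulated counts. The labels call the transfections triplicates and name no separate cultures, and the p-values reflect variation among these 6 libraries, which may be technical.

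Alternatives were scaling by DESeq2 size factors, by total counts or by the upper quartile, testing without the low-count filter, DESeq2 1.42.0, limma-voom (limma 3.58.1), the replicate number as a block, and leaving out each library. Omitting both siFLI1 replicate 3 and siControl replicate 1 was added after seeing the data. Members and gene lists were chosen with earlier results of these data known. Named by rule were the members, FLI1, all called genes of each list and up to 4 with the smallest adjusted p. For lists of markers, called genes, those at 0 and some others are given, the last chosen after their values were seen. Positions are as the table gives them (hg38), compared with GENCODE 29 (GRCh38).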

Additional observations from a re-analysis of the deposited data

How the results depend on the processing

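No integrin member was called in either direction under any of the 14 alternatives. The lowest adjusted p was 0.0949, for ITGA6 with no low-count filter. The log2 fold change of ITGAV ran from 0.62 under total counts, which moved the median of all genes to −0.12, to 0.89, and that of ITGA6 from 1.60 to 2.38. ITGA1, ITGA5 and ITGB1 stayed positive, at 0.20 to 0.65, 0.08 to 0.63 and 0.09 to 0.59. ITGAV had an unadjusted p above 0.05 without siFLI1 replicate 2 (0.0528) or siControl replicate 3 (0.0574). ITGB5, at −0.13, ran from −0.37 to 0.27 in fits without 1 library, with 0.05 without siFLI1 replicate 3, 0.27 without siControl replicate 1 and 0.47 without both. Over all genes, fits without 1 library called 64 to 121 higher and 1 to 7 lower. With no filter 306 were higher and 62 lower. Lower genes numbered 17 under total counts and 34 in DESeq2, and without both libraries 161 were higher and 32 lower. Among ligands called higher, fits without 1 library gave 4 to 6 collagens, 1 to 2 laminins and 1 to 7 fibronectin and αV ligands. Laminins numbered 1 under total counts and 4 without both libraries, where fibronectin and αV ligands numbered 9. With the replicate block the fit called 1 laminin, 2 genes lower and 99 genes higher, and no member. The cause of these moves was not tested. Same-numbered libraries did not deviate together (correlations −0.03, −0.01 and −0.05 for numbers 1, 2 and 3), and differently numbered ones ran from −0.09 to 0.12. No pairing by number was seen, but with 3 libraries per group these values cannot exclude it. Depth limits the members below the filter, where 1 count is 0.539 to 2.68 CPM.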
